A study of Mus musculus with 18 samples.

Results

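The Fc gamma receptors and their signalling partners were followed here as 10 genes, picked by gene symbol out of the 54232 genes counted: the activating receptors Fcgr1, Fcgr3 and Fcgr4, the inhibitory receptor Fcgr2b, the shared signalling chain Fcer1g, the kinase Syk, the neonatal receptor Fcgrt, and the Fc receptor family members of lymphocytes Fcrl1, Fcrl5 and Fcmr. RNA of whole lacrimal glands (LGs), 1 LG from each of 18 male mice, was sequenced after ribosomal RNA depletion. The 9 BALB/cJ mice (BALB/c) served as controls for the 9 NOD.B10Sn-H2b/J mice (NOD.H-2b), a model of primary Sjögren's syndrome on the non-obese diabetic background, whose major histocompatibility haplotype H2b comes from the C57BL/10SnJ strain and which does not become diabetic. Each strain was sampled at 2, 4 and 6 months (2M, 4M and 6M), with 3 untreated mice in each of the 6 groups. The strains differ in the whole genetic background, so a difference between them cannot be assigned to 1 locus, and neither strain carried a transgene.

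Fc gamma receptors bind the constant region of IgG and let myeloid cells take up or attack whatever the antibody has coated. The activating receptors have no signalling motif of their own in the mouse. They pair with the gamma chain made by Fcer1g, whose tyrosine motif (ITAM) recruits Syk once a kinase of the Src family has phosphorylated it. Fcgr2b carries an inhibitory motif (ITIM) in its own tail, recruits the phosphatase SHIP1 (Inpp5d), and is made both by myeloid cells and by B cells, where it dampens the antigen receptor. The balance of activating and inhibitory receptors on one cell sets its threshold for immune complexes, and glands in Sjögren's syndrome hold B cells and plasma cells that make autoantibodies.

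The totals per mouse lay between 49480781 and 103936830 counts, and levels are given in CPM (counts of a gene relative to the library total, for libraries of a common size), scaled by the TMM factors of all 18 libraries. The tissue label was met by 8 epithelial markers, whose summed level lay between 580.6 and 1032 CPM in all groups. In NOD.H-2b this sum was 890.7 to 1032 CPM at 2M and lower at 6M, at 580.6 to 701.3 CPM. In BALB/c it was 863.2 to 878.4 CPM at 2M and 853.1 to 902.9 CPM at 6M. Of the marker lists for infiltrating cells, the summed level of 10 B cell markers was 0.176 to 2.88 CPM in BALB/c and 2.56 to 603 CPM in NOD.H-2b, and that of 12 macrophage markers was 67.1 to 139 CPM in BALB/c and 198 to 313 CPM in NOD.H-2b. The library of replicate 1 of NOD.H-2b at 2M stood apart, with 2.56 CPM of B cell markers against 18.6 and 41.3 CPM in the other mice of its group, so the values of the lymphocyte receptors at 2M are also given without it. The values without this mouse are a description, since it was picked by markers of cells that make these receptors. Whole glands were sequenced, so more cells of a type and more RNA per cell cannot be told apart.

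Of the 10 genes, 6 were upregulated in NOD.H-2b LGs at 2M, 8 at 4M and 9 at 6M, and none was downregulated at any age, all log2 fold changes tested being above 0. A gene was called here when its FDR (the Benjamini-Hochberg adjusted p of edgeR's quasi-likelihood test over all genes tested) was under 0.05 and its fold change at least 2. By the same rule 12.0% of all genes tested were upregulated at 2M, 15.6% at 4M and 18.8% at 6M, so the strain difference was wide across the transcriptome. At 2M Fcrl5 and Fcmr had too few counts to be tested, and Fcrl1, Fcrl5 and Fcmr entered most strain tests only through their NOD.H-2b libraries. The counts above are therefore a description of the 10 genes and no measure of how often a receptor gene differed. The other 7 genes were tested in every comparison.

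**Figure D1:**
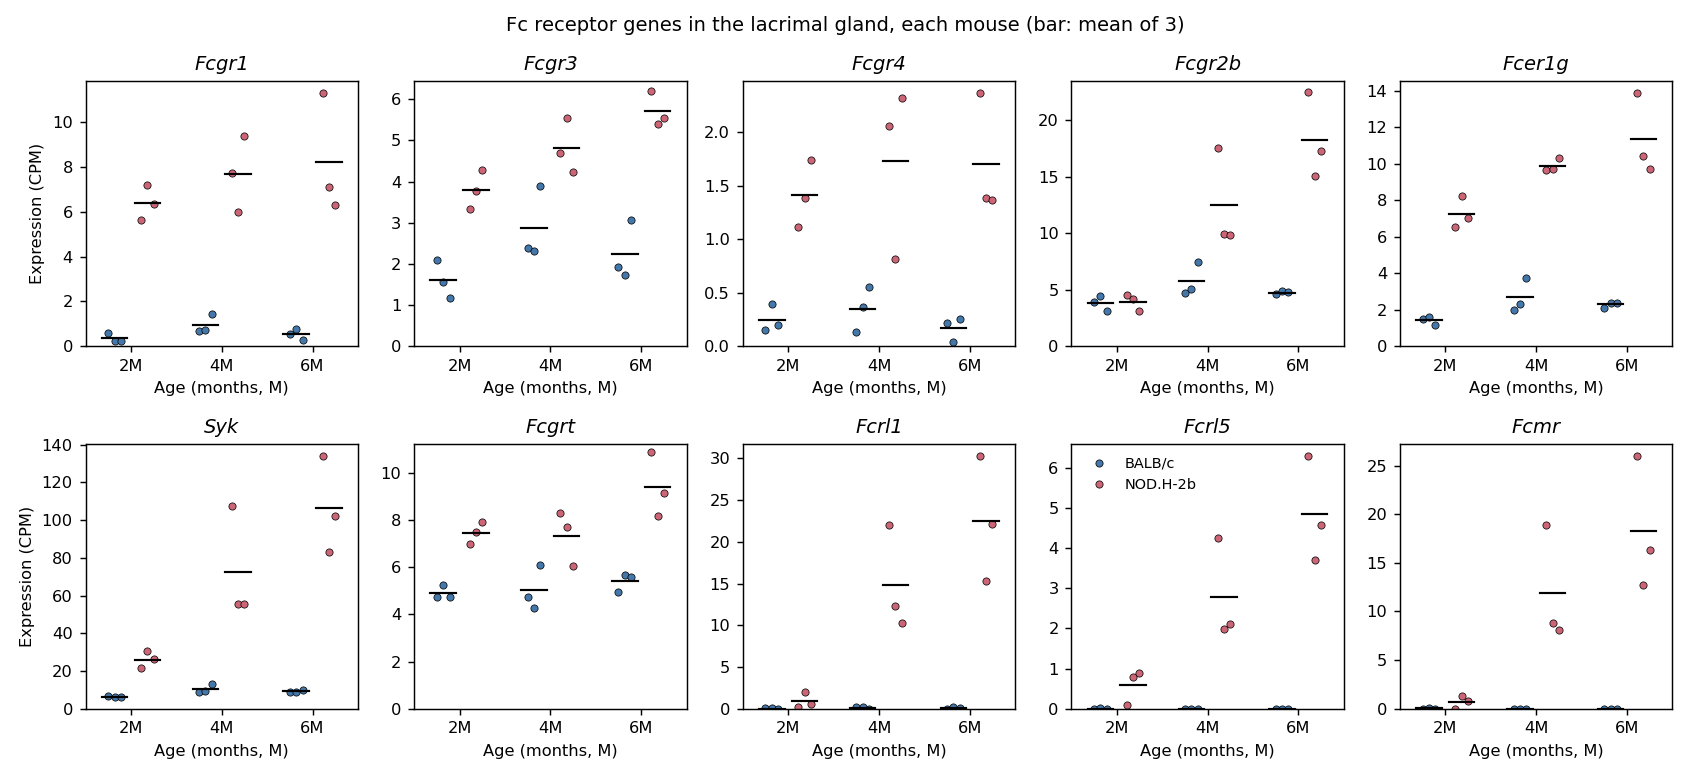
Expression of the 10 genes (y axis, CPM, each panel with its own scale from 0) at 2M, 4M and 6M (x axis), with a point for each mouse (blue, BALB/c; red, NOD.H-2b) and a bar at the mean of 3 mice. Fcgr1, Fcer1g and Syk were separate between the strains at every age, Fcgr2b overlapped at 2M and not at 4M or 6M, and Fcrl1, Fcrl5 and Fcmr were near 0 in BALB/c throughout.

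The activating receptors were upregulated from the youngest age. Fcgr1, the high affinity receptor for IgG, is encoded on chromosome 3 (GRCm38, 96282909 to 96293969, minus strand). In BALB/c it stood at 0.573, 0.233 and 0.247 CPM at 2M, at 0.682, 0.731 and 1.43 CPM at 4M, and at 0.537, 0.767 and 0.257 CPM at 6M. In NOD.H-2b it stood at 5.62, 7.22 and 6.35 CPM at 2M, at 7.72, 5.98 and 9.39 CPM at 4M, and at 11.3, 7.11 and 6.33 CPM at 6M. The lowest NOD.H-2b mouse of any age thus lay above the highest BALB/c mouse of any age. The log2 fold change was 4.24 ± 0.28 (SE) at 2M (edgeR FDR 1.69e-06), 3.00 ± 0.31 at 4M (edgeR FDR 1.27e-04) and 4.00 ± 0.36 at 6M (edgeR FDR 3.07e-05), an 18.8-fold, 8.01-fold and 16.0-fold difference.

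Fcgr4, a receptor of intermediate affinity for IgG2 made by monocytes, macrophages and neutrophils, was the least abundant of the Fc gamma receptors in NOD.H-2b. Its gene lies on chromosome 1 (171018920 to 171029761, plus strand) between those of Fcgr2b and Fcgr3. At 2M it was found with 8, 22 and 11 counts in BALB/c and with 68, 91 and 111 counts in NOD.H-2b, or 0.247 ± 0.130 against 1.42 ± 0.32 CPM (SD, n = 3). At 6M a BALB/c mouse gave only 2 counts, and the means were 0.172 ± 0.114 and 1.71 ± 0.57 CPM. The groups did not overlap at any age, although 1 NOD.H-2b mouse at 4M (0.819 CPM) came near the highest BALB/c mouse (0.552 CPM). At 2M, 4M and 6M its log2 fold change was 2.55 ± 0.37, 2.28 ± 0.55 and 3.30 ± 0.46, with edgeR FDRs of 2.42e-04, 0.0101 and 2.14e-04.

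Fcgr3, the low affinity activating receptor of macrophages, mast cells and NK cells (chromosome 1, 171051174 to 171064935, minus strand), differed least of the activating receptors. At 2M BALB/c LGs held 1.61 ± 0.47 CPM of it and NOD.H-2b LGs 3.80 ± 0.48 CPM, a log2 fold change of 1.28 ± 0.22 (edgeR FDR 6.28e-04). At 6M the levels were 2.24 ± 0.72 and 5.72 ± 0.42 CPM (log2 fold change 1.40 ± 0.21, edgeR FDR 3.15e-04). At 4M the difference of 0.75 ± 0.22 had an edgeR FDR of 0.0206 but lay under 2-fold, and 1 BALB/c mouse, replicate 3, stood at 3.89 CPM against 2.38 and 2.32 CPM in the others. Without that mouse the log2 fold change at 4M was 1.04 and Fcgr3 was called (edgeR FDR 2.49e-03), while the edgeR FDR passed 0.05 without replicate 1 or 2 of BALB/c (0.0855 and 0.0857) or replicate 2 of NOD.H-2b (0.0774).

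**Figure D2:**
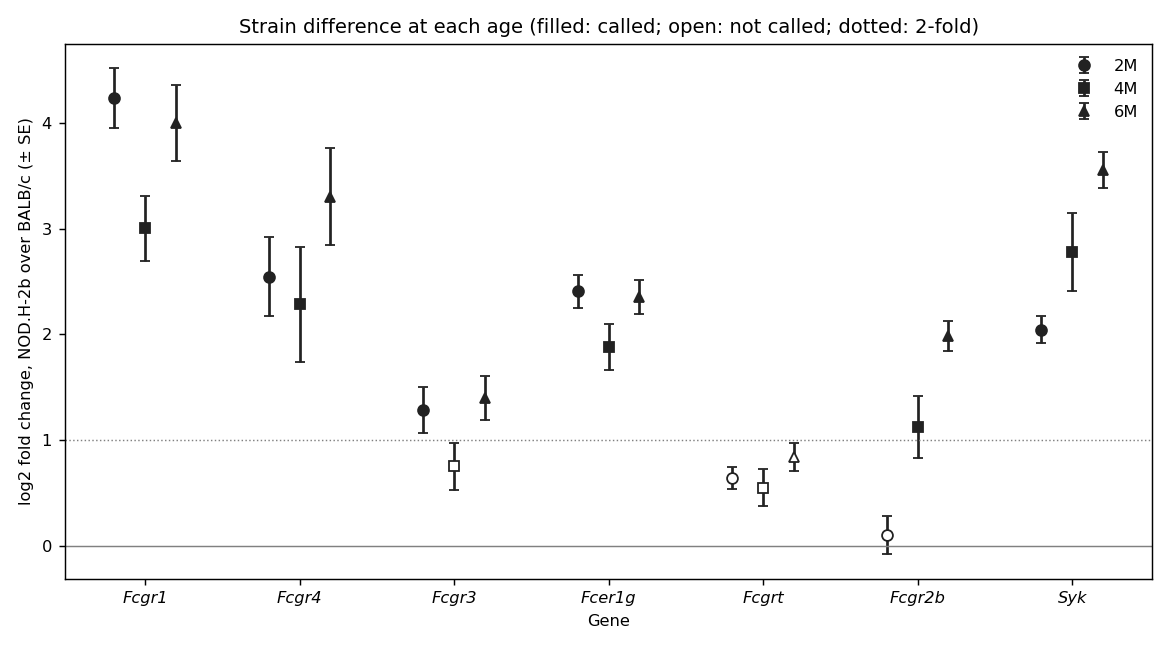
Log2 fold change between NOD.H-2b and BALB/c (y axis, ± SE) for the 7 genes tested in every comparison (x axis) at 2M (circles), 4M (squares) and 6M (triangles), with filled symbols for genes called. Fcgr1 had the highest value at 2M, 4M and 6M (4.24, 3.00 and 4.00), with errors that overlapped those of Syk at 4M and 6M. Fcgr2b climbed from 0.10 at 2M to 1.98 at 6M.

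Promoter sequence of the 4 Fc gamma receptors is shown because 3 of them differed between the strains at 2M and Fcgr2b did not. The stretches are the 150 bases before the annotated start in RefSeq (GRCm38.p6), 5′ to 3′ on the strand of the gene, read from the reference, a C57BL/6J genome, and not from the mice of the study. Capitals mark matches, on either strand, to GAGGAA (a core of sites for PU.1, the master factor of myeloid cells), TTCNNNGAA (the GAS element of interferon gamma responses) and GAAANNGAA (a core of the interferon-stimulated response element). In Fcgr3 a further start lies close by, and the more upstream one was used. The starts used for Fcgr3 and Fcgr2b lie inside the spans given here for these genes, which reach to 171064935 and 170976547. Sequence before the outer ends of those 2 genes was therefore not searched.
Fcgr1, chr3:96293970-96294119, minus strand: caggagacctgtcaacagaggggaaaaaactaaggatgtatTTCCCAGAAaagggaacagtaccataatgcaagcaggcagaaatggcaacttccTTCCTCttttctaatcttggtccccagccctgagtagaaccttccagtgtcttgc
Fcgr4, chr1:171018776-171018925, plus strand: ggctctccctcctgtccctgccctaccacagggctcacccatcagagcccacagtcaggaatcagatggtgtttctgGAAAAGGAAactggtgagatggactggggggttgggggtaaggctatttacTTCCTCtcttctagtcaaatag
Fcgr3, chr1:171059404-171059553, minus strand: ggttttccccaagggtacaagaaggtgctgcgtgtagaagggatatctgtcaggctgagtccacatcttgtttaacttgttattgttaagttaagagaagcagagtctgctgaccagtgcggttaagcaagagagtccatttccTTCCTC
Fcgr2b, chr1:170976072-170976221, minus strand: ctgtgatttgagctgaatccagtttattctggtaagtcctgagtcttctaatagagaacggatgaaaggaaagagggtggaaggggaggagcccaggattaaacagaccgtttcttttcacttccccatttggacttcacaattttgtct

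The GAS match in Fcgr1 began at position -109 from the start and its PU.1 match at -55, and Fcgr4 held the response element core at -73 and a PU.1 match at -22. At the starts used, Fcgr3 held a PU.1 match alone, and Fcgr2b held none of the 3 motifs. Over windows of 300 bases around 32817 mouse promoters, the PU.1 core was found in 28.3%, the GAS element in 8.3% and the response element core in 8.6%, so any of these matches is common. Among the other genes, Fcrl1 and Fcmr held the PU.1 core, as did the second annotated start of Syk, while Fcer1g, Fcgrt and Fcrl5 held no match. A match describes the letters of the window and is no measure of binding.

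The inhibitory receptor followed another course. Fcgr2b (chromosome 1, 170958617 to 170976547, minus strand) did not differ between the strains at 2M, where it stood at 3.86, 4.43 and 3.07 CPM in BALB/c and at 4.55, 4.20 and 3.07 CPM in NOD.H-2b. The ranges overlapped and the log2 fold change was 0.10 ± 0.18 (edgeR FDR 0.709). At 4M it stood at 4.66, 5.04 and 7.47 CPM in BALB/c and at 17.6, 9.90 and 9.87 CPM in NOD.H-2b (log2 fold change 1.12 ± 0.30, edgeR FDR 0.0223). By 6M the BALB/c mice remained at 4.61, 4.84 and 4.77 CPM while the NOD.H-2b mice stood at 22.5, 15.0 and 17.3 CPM (log2 fold change 1.98 ± 0.15, edgeR FDR 2.85e-06). The call at 4M was the less firm of the pair. It was lost without replicate 1 of NOD.H-2b (log2 fold change 0.79), without replicate 1 or 2 of BALB/c (edgeR FDRs 0.0694 and 0.0680) and without the filter on low counts (edgeR FDR 0.0908). At 2M the sign turned to -0.02 without replicate 1 of NOD.H-2b and to -0.04 without replicate 3 of BALB/c.

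Because Fcgr2b and Fcgr3 arose from a common ancestor, their transcripts share sequence. Of the 75-base windows along the Fcgr3 transcripts 5.78% were also found in Fcgr2b, and 2.48% of those of Fcgr2b in Fcgr3, so a small part of the reads of either could have been counted for neither or for the other. In all 8.26% of the windows of Fcgr2b occurred in another gene, against 0 for the 8 other genes followed. Annotated antisense transcripts overlap exons of Fcgr2b (Gm38204) and Fcgrt (Gm45669), and the library kit as named does not mark strand, so their reads could not be told apart.

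Within each mouse the ratio of activating to inhibitory receptor removes library size. In whole glands it is no balance on one cell, since Fcgr2b is also made by B cells. Fcgr1 counts were 0.0526 to 0.192 times those of Fcgr2b in the 9 BALB/c mice. In NOD.H-2b the ratio was 1.24 to 2.07 at 2M, 0.440 to 0.951 at 4M and 0.366 to 0.503 at 6M, so that Fcgr1 had more counts than Fcgr2b in all NOD.H-2b mice at 2M and in none later. These ratios are not scaled to length, and per kilobase of exon Fcgr1 also lay above Fcgr2b in 1 mouse of 4M, replicate 3 (3.63 against 2.59 CPM per kb). Averaged over the 3 ages the log2 ratio was higher in NOD.H-2b by 2.77 (6.82-fold), with a two-sided exact permutation p of 0.00025, the smallest that the 8000 arrangements of strain labels within ages allow, and 0.000375 adjusted over the 3 ratios. The ratio of Fcgr4 to Fcgr2b was higher by 1.79 (3.45-fold), with the same exact permutation p of 0.00025. For Fcgr3 over Fcgr2b the mean difference was 0.12 (exact permutation p = 0.645). This average held opposite signs, since the ratio was higher in NOD.H-2b by 1.22 at 2M and differed by -0.31 at 4M and by -0.53 at 6M. With 3 mice against 3 no single age can fall below an exact p of 0.1, which was reached at 2M by all 3 ratios and at 4M and 6M by those of Fcgr1 and Fcgr4.

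**Figure D3:**
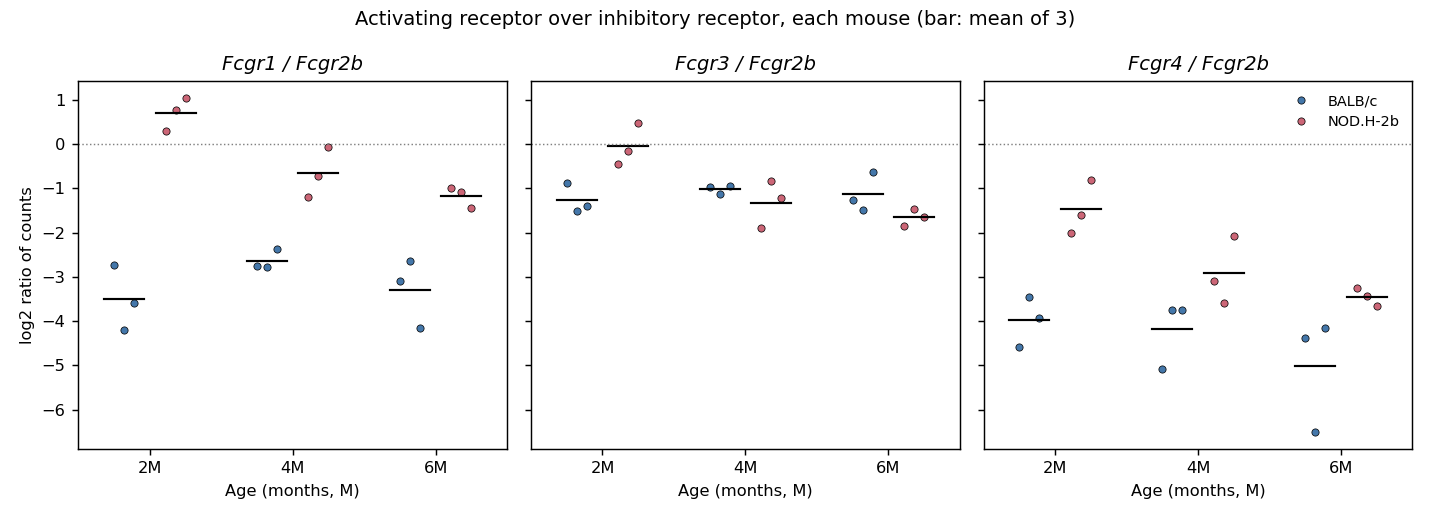
Log2 ratio of the counts of Fcgr1, Fcgr3 and Fcgr4 to those of Fcgr2b (y axis, shared) in each mouse at 2M, 4M and 6M (x axis), with bars at the mean of 3 mice. In NOD.H-2b (red) the mean of the Fcgr1 panel fell from 0.71 at 2M to -1.17 at 6M, while in BALB/c (blue) it was -3.51 and -3.29.

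The change of these ratios with age was asked after the data had been seen. From 2M to 6M the log2 ratio of Fcgr1 to Fcgr2b changed by -1.88 in NOD.H-2b and by 0.21 in BALB/c, and that of Fcgr3 to Fcgr2b by -1.62 and 0.13. The difference between the strains in this change was -2.10 for Fcgr1 (two-sided exact permutation of ages within strains, p = 0.045, adjusted over 3 ratios 0.0675) and -1.75 for Fcgr3 (exact permutation p = 0.03, adjusted 0.0675). For Fcgr4 it was -0.94 (exact permutation p = 0.5). None of the 3 changes passed after adjustment. In NOD.H-2b the B cell markers summed to 2.56 to 41.3 CPM at 2M and 301 to 603 CPM at 6M, and their part in the ratios was not tested.

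The signalling chain and the kinase were both upregulated at every age. Fcer1g, the gamma chain that the activating receptors need for surface expression and signal (chromosome 1, 171229572 to 171234365, minus strand), stood at 1.47, 1.60 and 1.16 CPM in BALB/c at 2M while the NOD.H-2b mice stood at 6.52, 8.22 and 7.03 CPM. At 6M it stood at 2.10, 2.39 and 2.36 CPM in BALB/c and at 13.9, 10.4 and 9.73 CPM in NOD.H-2b. The groups were separate at each age, and the log2 fold change at 2M, 4M and 6M was 2.41 ± 0.16, 1.88 ± 0.22 and 2.35 ± 0.16 (edgeR FDRs 6.02e-07, 1.63e-04 and 1.76e-06).

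Syk, the kinase that docks on the phosphorylated gamma chain and also on the B cell antigen receptor (chromosome 13, 52583173 to 52648792, plus strand), showed the widest gain in level. At 2M BALB/c mice had 6.77, 6.27 and 6.47 CPM and NOD.H-2b mice 21.4, 30.5 and 26.1 CPM. At 4M BALB/c mice were at 8.81, 9.63 and 13.4 CPM and NOD.H-2b mice at 108, 55.3 and 55.3 CPM, and at 6M the values were 8.92, 8.80 and 10.2 CPM against 134, 83.1 and 102 CPM. No NOD.H-2b mouse of any age overlapped with BALB/c. Its log2 fold change at 2M, 4M and 6M was 2.04 ± 0.13, 2.78 ± 0.37 and 3.56 ± 0.17 (edgeR FDRs 2.27e-06, 3.09e-03 and 1.12e-06).

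Fcgrt, the neonatal receptor that returns IgG to the circulation from endothelium, epithelium and macrophages (chromosome 7, 45092990 to 45103851, minus strand), differed by less than 2-fold. Its mean at 2M was 4.92 ± 0.28 CPM in control mice and 7.47 ± 0.46 CPM in NOD.H-2b mice, and 5.40 ± 0.39 and 9.41 ± 1.39 CPM at 6M. The strains did not overlap at these ages, and at 4M 1 NOD.H-2b mouse (6.05 CPM) lay just under the highest BALB/c mouse (6.09 CPM). The log2 fold change was 0.64 ± 0.10, 0.55 ± 0.17 and 0.84 ± 0.13 at 2M, 4M and 6M. Each had an edgeR FDR under 0.05 (4.85e-04, 0.0272 and 4.43e-04) but was not called.

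The receptors of the lymphocytes were almost silent in BALB/c. Fcrl1, an activating coreceptor of B cells (chromosome 3, 87376387 to 87402934, plus strand), was found with 1 to 10 counts per BALB/c library. In NOD.H-2b it had 11, 135 and 36 counts at 2M, 1455, 798 and 513 counts at 4M and 2315, 872 and 1261 counts at 6M. By summed counts scaled to library size it was 31.5-fold higher at 2M (95% exact interval 13.3 to 98.3), 119-fold higher at 4M (78.2 to 190) and 355-fold higher at 6M (203 to 688), intervals that cover counting error only. Single mice moved these folds further: at 2M it was 12.4-fold without replicate 2 of NOD.H-2b and 43.6-fold without replicate 1, and at 6M it was 209-fold and 793-fold without replicate 1 or 2 of BALB/c. It was called at all 3 ages (edgeR FDRs 0.0148, 3.49e-04 and 1.71e-05), but at 2M the call was lost without any of the 3 BALB/c mice (edgeR FDRs 0.0609, 0.0644 and 0.0786). At 2M and 6M Fcrl1 entered the test only through its NOD.H-2b libraries, so those calls describe the counts and add no support. Without replicate 1 of NOD.H-2b the edgeR FDR at 2M was 1.10e-04.

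Fcmr, the receptor for IgM of B cells (chromosome 1, 130865669 to 130880791, plus strand), had 5, 2 and 2 counts in all over the 3 BALB/c mice of 2M, 4M and 6M. NOD.H-2b mice had 0, 88 and 53 counts at 2M, 1251, 568 and 402 counts at 4M and 1985, 726 and 930 counts at 6M. The mouse with 0 counts at 2M was replicate 1, the one with the fewest B cell markers. By summed counts Fcmr was 24.4-fold higher at 2M (95% exact interval 10.2 to 76.4), 1048-fold higher at 4M (290 to 8657) and 1746-fold higher at 6M (483 to 14420). At 2M the fold was 35.9 without replicate 1 of NOD.H-2b, 14.0 without its replicate 2, and 80.9 or 16.0 without replicate 2 or 3 of BALB/c. At 4M it ranged from 714 to 1491 when 1 mouse was left out, and at 6M, without replicate 1 of BALB/c, the controls had 0 counts and the fold was at least 571. It was called at 4M and 6M (edgeR FDRs 1.24e-04 and 3.34e-06). At both ages Fcmr entered the test only through its NOD.H-2b libraries, so these calls describe the counts and add no support.

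Fcrl5, an inhibitory receptor of marginal zone B cells and plasma cells (chromosome 3, 87435773 to 87500678, plus strand), had 1 count in all BALB/c libraries together. In NOD.H-2b it had 6, 52 and 57 counts at 2M, 281, 128 and 106 counts at 4M and 481, 212 and 261 counts at 6M. Against a floor of 3 counts over the BALB/c group its level was at least 162-fold higher in the 4M group and, in the 6M group, at least 304.9-fold higher, where the lower limits of the 95% exact interval were 131 and 247.5. The floor gave at least 98.3-fold without replicate 3 of BALB/c at 4M and at least 149.6-fold without replicate 1 of BALB/c at 6M. Fcrl5 was called at both ages (edgeR FDRs 1.21e-04 and 2.15e-06), where it too entered the test only through its NOD.H-2b libraries. At 2M its ratio of summed counts was 99.6 (95% exact interval 17.5 to 3969), 139 without replicate 1 of NOD.H-2b, 65.3 without replicate 3 of BALB/c, and at least 22.0 without replicate 2 of BALB/c, which held the only count. Without replicate 1 of NOD.H-2b, both Fcrl5 and Fcmr could be tested at 2M and were called, with edgeR FDRs of 1.15e-05 and 4.80e-05, and 8 of the 10 genes were then upregulated. That mouse was picked by its low B cell markers, so these calls rest on the choice and are no independent support. Both could also be tested without any 1 BALB/c mouse, where Fcrl5 was called (edgeR FDRs 0.0227 to 0.0388) and Fcmr was not (0.167 to 0.249), and with no filter on low counts the edgeR FDR of Fcmr at 2M was 0.21.

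Against the summed CPM of the B cell markers, Fcrl1 was 3.05% to 7.05% in NOD.H-2b mice at 2M and 5.01% to 5.57% at 4M and 6M. Fcmr was 0% to 4.49% at 2M and 3.86% to 4.37% at 4M and 6M. Fcrl5 was 1.92% to 4.83% at 2M, 0.869% to 1.10% at 4M and 1.04% to 1.23% at 6M, so its share was lower at the later ages. The part of B cell number in these levels was not tested.

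Read per length, the order of the genes changed between the strains. At 6M in BALB/c the highest levels per kilobase of exon were those of Fcer1g (3.05 ± 0.21 CPM per kb) and Fcgrt (3.03 ± 0.22), which did not differ beyond their spread. Syk (1.54 ± 0.12), Fcgr3 (1.38 ± 0.44) and Fcgr2b (1.24 ± 0.03) followed, with Fcgr3 overlapping both neighbours, and Fcgr1 (0.201 ± 0.099) and Fcgr4 (0.137 ± 0.090) were far lower. Among the NOD.H-2b mice of 6M the order per kb was Syk (17.7 ± 4.28 CPM per kb), Fcer1g (15.2 ± 2.99), Fcmr (11.5 ± 4.28), Fcrl1 (8.69 ± 2.89), Fcgrt (5.28 ± 0.78), Fcgr2b (4.80 ± 1.00), Fcgr3 (3.51 ± 0.26), Fcgr1 (3.19 ± 1.03), Fcrl5 (1.40 ± 0.38) and Fcgr4 (1.36 ± 0.46). Neighbours in this order overlapped within 1 SD between mice, apart from Fcgr2b and Fcgr3, which were just apart, and Fcgr1 and Fcrl5. The genes were measured in the same mice, and within each mouse the order from Fcer1g down to Fcgr3 held. Syk and Fcer1g, Fcgr3 and Fcgr1, and Fcrl5 and Fcgr4 changed places in at least 1 mouse.

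Averaged over the 3 ages in a fit of all 18 mice, 9 of the 10 genes were upregulated, the exception being Fcgrt (log2 fold change 0.65 ± 0.08), while 17.6% of all genes tested were upregulated and 5.19% downregulated. The 9 include Fcrl1, Fcrl5 and Fcmr, which were near 0 in BALB/c, so this count is a description too. The strain difference itself changed from 2M to 6M in 2 of the 10 genes, both upwards, against 7.04% of all genes at an FDR under 0.05. These were Fcgr2b, whose log2 fold change was larger at 6M by 1.89 ± 0.35 (edgeR FDR 4.10e-03), and Syk, larger by 1.52 ± 0.38 (edgeR FDR 0.0196). For the activating receptors and their chain the change was -0.23 ± 0.56 (Fcgr1), 0.12 ± 0.34 (Fcgr3), 0.76 ± 0.77 (Fcgr4) and -0.04 ± 0.27 (Fcer1g), none past the threshold and those of Fcgr1 and Fcgr4 with wide errors. The call for Syk was lost without replicate 1 of NOD.H-2b at 2M (edgeR FDR 0.0522) and without replicate 1 of NOD.H-2b at 6M (edgeR FDR 0.0562), and that for Fcgr2b remained without any of the 18 mice. Fcmr, Fcrl1 and Fcrl5 had changes of 5.97 ± 3.52, 3.48 ± 2.76 and 4.99 ± 4.18, with wide errors. Their counts were near 0 in BALB/c. Among the NOD.H-2b mice of 2M they spread from 0 to 88 (Fcmr), 11 to 135 (Fcrl1) and 6 to 57 (Fcrl5). The part of each in the errors was not tested.

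Within NOD.H-2b, 5 genes were upregulated from 2M to 6M: Fcgr2b by 2.20 ± 0.19 (edgeR FDR 5.97e-04), Syk by 2.01 ± 0.22 (edgeR FDR 2.00e-03), Fcrl1 by 4.55 ± 0.84 (edgeR FDR 0.0160), Fcrl5 by 2.99 ± 0.66 (edgeR FDR 0.0184) and Fcmr by 4.62 ± 0.97 (edgeR FDR 0.0225) on the log2 scale, against 10.9% of all genes. Fcgr3 (0.57 ± 0.14) and Fcer1g (0.63 ± 0.15) had edgeR FDRs of 0.0106 and 0.0114 but lay under 2-fold, and Fcgr1 (0.35 ± 0.22), Fcgr4 (0.25 ± 0.28) and Fcgrt (0.32 ± 0.12) did not pass. The calls for Fcgr2b and Syk stood without any 1 of the 6 mice. Those of the lymphocyte receptors did not: without replicate 1 at 6M only Fcgr2b and Syk were called, without replicate 3 at 2M Fcrl1 and Fcmr were lost (edgeR FDRs 0.0517 and 0.0655), and without replicate 3 at 6M Fcrl5 and Fcmr were lost (edgeR FDRs 0.0540 and 0.0527). Without replicate 1 at 2M all 3 were called, with changes of 4.08 (Fcrl1), 2.51 (Fcrl5) and 4.05 (Fcmr). From 2M to 4M, a comparison that shares its 2M mice with the former, 3 genes were upregulated (Fcgr2b by 1.66, Syk by 1.49 and Fcrl1 by 3.98) against 5.97% of all genes. This count ranged from 0 without replicate 3 of 2M to 3. From 4M to 6M no receptor gene was called, and 0.00555% of all genes were upregulated. DESeq2 also called 0 of the 10, while 2490 of all genes had an unadjusted edgeR p under 0.05, and Fcrl5 was called without replicate 1 of 4M.

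BALB/c LGs changed little. From 2M to 4M 3 of the 7 genes tested had an edgeR FDR under 0.05 and only Fcgr1 was called, against 2.07% of all genes upregulated. Its log2 fold change was 1.45 ± 0.43 (edgeR FDR 0.0463), at 13 to 30 counts per mouse at 2M and 36 to 96 counts at 4M. The call was lost without replicate 2 or 3 at 2M or replicate 2 or 3 at 4M (edgeR FDRs 0.0561 to 0.184). Without replicate 1 at 2M Fcgr3 was called too (edgeR FDR 0.0400), and Fcer1g was called without replicate 1 or replicate 2 at 4M (edgeR FDRs 0.0157 and 0.0384). No receptor gene was called from 2M to 6M (1.57% of all genes upregulated) or from 4M to 6M (0.018%). DESeq2 called 0 as well, while 3511 and 2583 of all genes had an unadjusted edgeR p under 0.05 in these comparisons. From 2M to 6M the 7 genes tested ranged from a log2 change of -0.50 for Fcgr4 to 0.68 for Fcer1g, with Syk (0.51 ± 0.10) the only one at an edgeR FDR under 0.05 (0.0128).

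Markers of several cell types that carry Fc receptors were upregulated in NOD.H-2b. Of the macrophage markers 9 of 12 were called at 2M, 8 at 4M and 9 at 6M, of the NK cell markers 5 of 5 tested, 6 of 6 and 6 of 6, and of the dendritic cell markers 5, 5 and 6 of 7. Of all genes tested 12.0%, 15.6% and 18.8% were upregulated at these ages. The 6 mast cell markers had 1 upregulated and 0 downregulated at 2M, 0 and 4 at 4M, and 1 and 3 at 6M. NK cell markers summed to 0.106 to 2.03 CPM in BALB/c and 3.53 to 10.5 CPM in NOD.H-2b, and dendritic cell markers to 4.67 to 14.8 and 16.2 to 59.7 CPM. The NK marker Klra8 had 0 counts in every BALB/c library, so its calls at 4M and 6M rest on NOD.H-2b libraries alone. Its level among NOD.H-2b mice ran from 0.707 CPM (2M) to 1.96 CPM (6M), which the NK sum includes. Why no Klra8 reads were counted in controls was not tested. The part of each cell type in the receptor levels was not tested. Set against the summed CPM of the 12 macrophage markers, the genes are given here as values without a test. These markers did not move alike. At 6M Mertk averaged 19.5 CPM in controls against 18.7 CPM in NOD.H-2b, while C1qa averaged 7.21 against 39.35 CPM. Fcer1g averaged 2.28 against 11.3 CPM at that age, so its percentage depends on which markers are summed. Fcgr1 was 0.272% to 1.03% of the marker sum in BALB/c and 2.38% to 3.75% in NOD.H-2b, with no overlap at any age, and Fcer1g was 1.74% to 2.71% in BALB/c and 3.30% to 4.44% in NOD.H-2b. Fcgr3 was 1.53% to 3.40% in BALB/c and 1.69% to 2.42% in NOD.H-2b, within the same range. Fcgr4 was 0.183% to 0.461% in BALB/c and 0.566% to 0.835% in NOD.H-2b at 2M, overlapped at 4M (0.131% to 0.398% and 0.326% to 0.926%), and was 0.0378% to 0.285% and 0.548% to 0.756% at 6M. Fcgr2b was lower against the marker sum in NOD.H-2b at 2M (1.47% to 2.31%, with 4.57% to 5.18% in BALB/c), overlapped with BALB/c at 4M, and was higher at 6M (5.96% to 7.53%, with 4.29% to 5.29% in BALB/c). Syk was 7.31% to 11.3% in BALB/c at all ages, and in NOD.H-2b 10.8% to 14.6% at 2M and 32.9% to 44.4% at 6M. B cell markers rose over the same ages in NOD.H-2b, from 2.56 to 41.3 CPM at 2M to 301 to 603 CPM at 6M, and their part in the gains of Fcgr2b and Syk was not tested. The markers of neutrophils summed to 0.440 to 1.655 CPM in BALB/c and 1.89 to 6.86 CPM in NOD.H-2b. In every group 2 to 6 of the 7 markers were at 3 counts or fewer, Ly6g among them. Only 1 of the 7 could be tested at each age, and it was upregulated in NOD.H-2b at 2M, 4M and 6M.

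**Figure D4:**
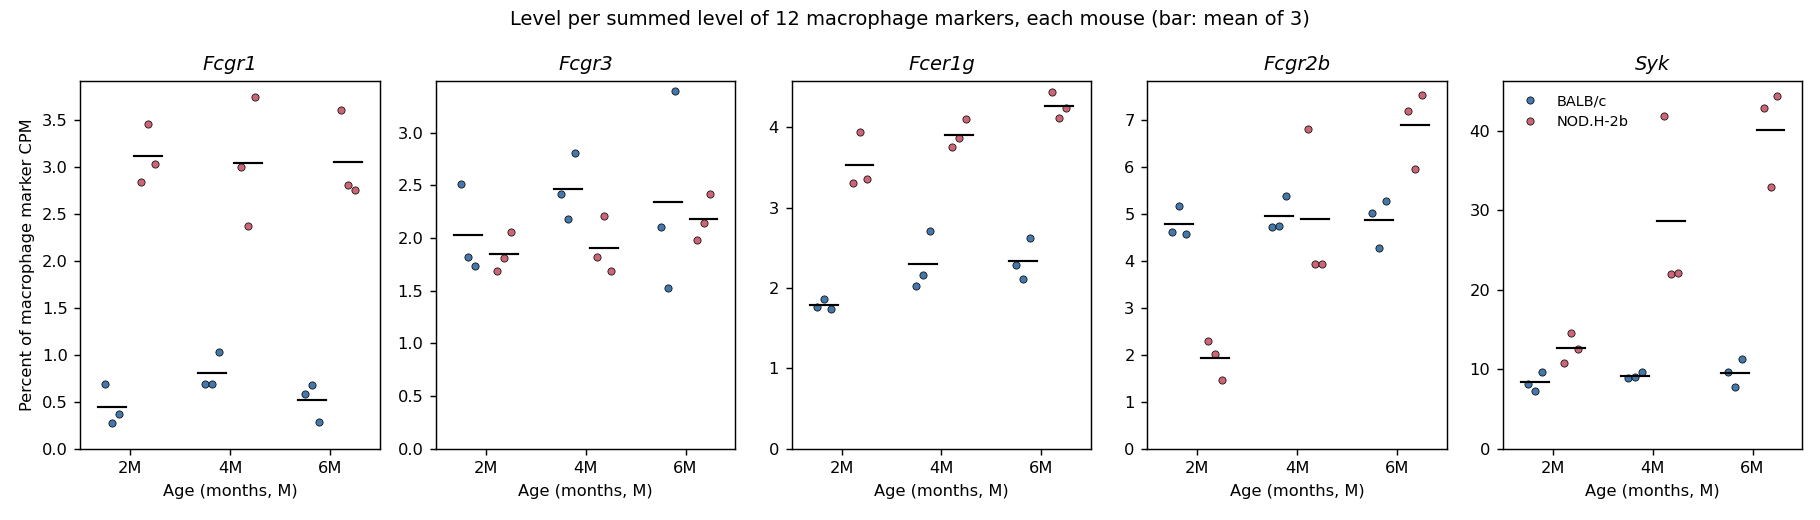
Level of 5 genes as a percentage of the summed CPM of 12 macrophage markers (y axis, each panel from 0) in each mouse at 2M, 4M and 6M (x axis), with bars at the mean of 3 mice. Against this sum, whose markers did not move alike, Fcgr1 and Fcer1g were higher in NOD.H-2b (red) at each age and Fcgr3 overlapped with BALB/c (blue). Fcgr2b in NOD.H-2b went from 1.47% to 2.31% at 2M to 5.96% to 7.53% at 6M.

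Other genes of the pathway were followed as 6 lists, by the strain difference averaged over the 3 ages. Over all genes tested the median log2 fold change was -0.02, with 17.6% upregulated and 5.19% downregulated. Among the receptor partners and proximal kinases, 7 of 11 genes were upregulated and 1 downregulated, with a median of 1.18. Cd247, the zeta chain of the T cell receptor complex, rose from 0.060 ± 0.041 to 0.770 ± 0.331 CPM at 2M and from 0.140 ± 0.106 to 3.88 ± 0.62 CPM at 6M. Fgr, a Src family kinase of myeloid cells, rose from 0.412 ± 0.231 to 4.62 ± 1.27 CPM at 2M and from 0.762 ± 0.166 to 10.2 ± 3.26 CPM at 6M.

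The inhibitory enzymes and adaptors had 4 of 10 genes upregulated, none downregulated and a median log2 fold change of 0.80. Inpp5d, which encodes the phosphatase SHIP1 that Fcgr2b recruits, stood at 2M at 4.38 ± 0.52 CPM in control LGs and 15.5 ± 3.57 CPM in those of NOD.H-2b, and at 6M at 4.96 ± 0.32 and 58.4 ± 13.7 CPM. Its strain difference grew by 1.74 ± 0.43 from 2M to 6M (edgeR FDR 0.0188), beside the 1.89 of Fcgr2b. Dok1, an adaptor that restrains Ras signalling, was called at every age (log2 fold change 1.93 ± 0.31, 2.30 ± 0.22 and 2.83 ± 0.23). Of the downstream adaptors and enzymes, 10 of 22 were upregulated and none downregulated, with a median of 0.77. Lat and Lcp2 (SLP-76), adaptors that link Syk or ZAP-70 to phospholipase C gamma, led the list with log2 fold changes of 4.22 ± 0.21 and 3.60 ± 0.22.

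Phagocytosis and oxidase effectors had 11 of 20 genes upregulated, none downregulated and a median of 2.12. Rac2, the GTPase of the phagocyte oxidase, stood at 2M at 0.759 ± 0.156 CPM in control LGs and 10.2 ± 4.56 CPM in those of NOD.H-2b, and at 6M at 1.60 ± 0.71 and 45.5 ± 9.82 CPM. Coro1a, an actin regulator of leukocytes, went from 2.62 ± 0.04 to 18.8 ± 7.68 CPM at 2M and from 2.92 ± 0.67 to 77.2 ± 21.1 CPM at 6M. T cells also express Cd247, Lat, Lcp2, Rac2 and Coro1a, and the 8 T cell markers summed to 0.247 to 4.44 CPM in BALB/c and 7.62 to 96.9 CPM in NOD.H-2b, whose part was not tested.

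**Figure D5:**
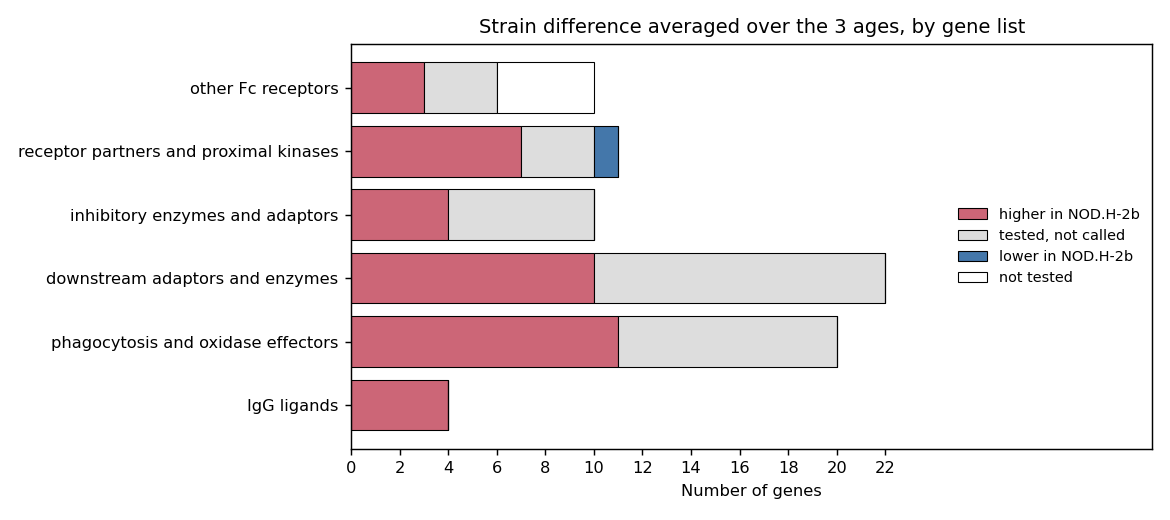
Number of genes (x axis) in each of the 6 lists (y axis) that were upregulated in NOD.H-2b (red), tested and not called (grey), downregulated (blue) or not tested (white) in the fit over all 3 ages. The list of receptor partners and proximal kinases had 7 genes upregulated and 1 downregulated, and the phagocytosis list 11 of 20 upregulated. Of all genes tested 17.6% were upregulated and 5.19% downregulated.

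Of the 10 other Fc receptors 6 could be tested, 3 were upregulated and none downregulated, with a median log2 fold change of 0.84 in the averaged comparison. At single ages Fcamr, a receptor for IgA and IgM, was downregulated at 6M (log2 fold change -1.19 ± 0.36, edgeR FDR 0.0383). Pigr, which carries IgA across the epithelium, was upregulated at 2M (2.21 ± 0.25, edgeR FDR 2.26e-03) and its strain difference fell by 2.62 ± 0.38 from 2M to 6M (edgeR FDR 1.60e-03). Both were named after their values were seen. Trim21, the cytosolic antibody receptor that is also the Ro52 autoantigen of Sjögren's syndrome, was called at each age, with 3.96 ± 0.78 against 8.31 ± 0.87 CPM at 2M and 4.37 ± 0.34 against 11.6 ± 1.87 CPM at 6M. The other pair were Fcer2a (CD23) and Fcrla of B cells, named because they complete the count, with averaged log2 fold changes of 5.24 ± 0.48 and 5.38 ± 0.52. The IgG transcripts are made by plasma cells, of whose 5 markers 2, 4 and 3 were called at 2M, 4M and 6M. The share of all genes upregulated at these ages was 12.0%, 15.6% and 18.8%. All 4 genes of the IgG ligands were upregulated in the averaged comparison (3 by DESeq2), with a median log2 fold change of 6.24. Ighg2b was found with 1 count in the 3 BALB/c mice of 2M together and at 10.8 ± 5.84 CPM in NOD.H-2b, and at 6M the levels were 3.19 ± 1.65 and 188 ± 55.4 CPM (log2 fold change 5.99 ± 0.56, edgeR FDR 6.58e-04). At 6M Ighg2c stood at 1.32 ± 0.54 CPM in control LGs and at 198.5 ± 123 CPM in those of NOD.H-2b. BALB/c mice carry the Ighg2a form at this locus, which limits Ighg2c as a measure of their IgG2. Ighg1 did not pass at any single age, and 1 NOD.H-2b mouse at 4M stood at 1630 CPM against 8.62 and 23.4 CPM in the other 2.

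The genes whose levels ran most alike over the 18 mice were named for 4 receptors by Pearson's r of log2 CPM among 11877 genes, a description in which the strains form separate clusters, so r within the 9 NOD.H-2b mice is given too. Fcmr was nearest to the B cell genes Pax5 (r = 0.998, within NOD.H-2b 0.996), Cr2 (0.996 and 0.996) and Cxcr5 (0.996 and 0.997). Fcgr2b was nearest to Cep250 (0.965 and 0.979), Snx29 (0.963 and 0.958) and Pisd-ps1 (0.96 and 0.985). Fcgr4 was nearest to Slx4 (0.956 and 0.819), the interferon-induced Ifi35 (0.953 and 0.832) and Gtpbp2 (0.95 and 0.774). Fcgrt was nearest to Ddx26b (0.955 and 0.886), Zfp420 (0.951 and 0.857) and the alarmin Il33 (0.943 and 0.927).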

How the data were processed

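RNA of 1 LG per mouse from 18 male mice was analysed from the raw counts per gene deposited by the authors, who used cutadapt for trimming, STAR with the GRCm38 genome for alignment and HTSeq for counting, per the submitters' processing notes and the methods. Versions, annotation release, strand setting and the handling of reads with several matches are not given in the sources used here. Both strains were aligned to one reference, and the effect of strain variants on the counts was not tested. The authors' log-scale table was not used. Groups were taken from the sample labels, and all sample columns were mapped. The labels name separate mice, 3 per group.

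Members and gene lists were chosen with earlier results of these data known. Genes passing filterByExpr were tested with edgeR 4.0.16 (R 4.3.3; TMM, robust quasi-likelihood F test, Benjamini-Hochberg over all genes tested), called at an FDR under 0.05 and at least 2-fold, or at an FDR under 0.05 alone for the change of the strain difference from 2M to 6M. Each age, and each pair of ages within a strain, was fitted on its 6 mice, and the averaged difference on all 18. Errors are the log2 fold change divided by the square root of F. Ratios to Fcgr2b used counts plus 0.5. Near-zero genes were compared by summed counts with 95% exact (Clopper-Pearson) intervals or a floor of 3 counts, which cover counting error only. The alternatives were DESeq2 1.42.0, other size factors, other filters, 1 fit of all mice, the replicate number as a block, and leaving out each mouse. The scripts were tested on simulated data. Named genes were all members, the 2 genes each way from each list with the largest mean change among those called at all 3 ages, and the 3 most alike genes for 4 members (average log2 CPM 1 or more). Coordinates, exon lengths and overlaps come from GENCODE M21. Depth was 49480781 to 103936830 counts per mouse, and genes near 0 are given with counting intervals or floors. The values of 1 gene of the lists are not reported here.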

Additional observations from a re-analysis of the deposited data

Results flagged for a closer look

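The strain difference of 2 of the 10 genes changed between 2M and 6M by the test of that change itself in edgeR. For Fcgr2b the log2 fold change between NOD.H-2b and BALB/c was larger at 6M by 1.89 (SE 0.35, FDR 4.10e-03), with NOD.H-2b at 3.94 ± 0.78 CPM at 2M and 18.3 ± 3.81 CPM at 6M and BALB/c at 3.79 ± 0.69 and 4.74 ± 0.12 CPM. For Syk it was larger by 1.52 (SE 0.38, FDR 0.0196), with NOD.H-2b at 26.0 ± 4.54 and 106 ± 25.8 CPM and BALB/c at 6.50 ± 0.25 and 9.29 ± 0.75 CPM. In each gene all 3 NOD.H-2b mice of 6M lay above all 3 of 2M. The B cell markers of the same NOD.H-2b mice summed to 2.56 to 41.3 CPM at 2M and 301 to 603 CPM at 6M, and their part was not tested. Groups of 3 mice were too small for a test of single mice that lie apart.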

How the results depend on the processing

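Of the counts of called genes and the ratios, 632 recomputed values stayed on the same side of the threshold or within 1.5 times, 21 moved further and 15 missed the threshold, and of single-gene values 986 stayed the same, 41 lost and 6 gained a call, and 11 changed sign. With at least 10 counts required in every mouse, 4 genes were upregulated at 4M and 5 at 6M, since that filter leaves Fcrl1, Fcrl5, Fcmr and Fcgr4 untested. From 2M to 4M, 1 fit of all 18 mice called 0 genes in BALB/c mice and 5 in NOD.H-2b mice. The replicate numbers do not pair the mice: same-numbered mice of different groups had correlations from -0.34 to 0.34 (median 0.018, 45 pairs), as did mice of other numbers. With the replicate block, 0 genes were called from 2M to 4M in BALB/c mice and 1 in NOD.H-2b mice, with 2 in the latter from 2M to 6M. Under the block Fcgr2b at 4M was no longer called (FDR 0.0589), and the cause was not tested.

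Leaving out 1 mouse gave 6 to 8 upregulated genes at 2M, 7 to 9 at 4M, 9 at 6M, 8 to 9 averaged and 1 to 2 for the change of the strain difference. Within NOD.H-2b it gave 0 to 3 from 2M to 4M, 0 to 1 from 4M to 6M and 2 to 5 from 2M to 6M, and in BALB/c 0 to 2 from 2M to 4M. The log2 ratio to Fcgr2b averaged over ages ranged from 2.63 to 2.90 for Fcgr1, 0.037 to 0.221 for Fcgr3 and 1.54 to 1.93 for Fcgr4, and its change from 2M to 6M from -2.53 to -1.75 for Fcgr1 and -1.95 to -1.49 for Fcgr3, with exact permutation p up to 0.085 and 0.06. Single values near 0 turned sign: Fcgr2b at 2M (-0.0385 to 0.24), the change of the strain difference in Fcgr1 (-0.81 to 0.0245), Fcgr3 (-0.16 to 0.34) and Fcer1g (-0.22 to 0.0536), and the age change of Fcgr4 in NOD.H-2b mice, 2M to 6M (-0.0576 to 0.45). Averaged over ages, Fcgr2b was under 2-fold without replicate 1 of NOD.H-2b at 4M (0.93) or at 6M (0.98). With DESeq2, Fcmr was also called for the change of the strain difference (FDR 0.0208). Depth limits the lymphocyte receptors in BALB/c, where 0 to 10 counts were found.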
